A study of Homo sapiens with 8 samples.

Results

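LNCaP cells that carried a hairpin against METTL3 together with a hairpin-resistant, catalytically active METTL3 (the wild-type rescue) were compared with LNCaP cells that carried a control hairpin and a vector (the control). LNCaP is a human prostate adenocarcinoma line whose growth and luminal gene programme depend on androgen. The comparison uses 4 of the 8 RNA sequencing libraries of the series, 2 per line, chosen by their titles. The other lines, given beside it where they help to read a value, carried the same hairpin with a vector (the knockdown, 2 libraries) or with a hairpin-resistant catalytically dead METTL3 (the mutant rescue, 2 libraries). All 4 lines were stable lines made by lentivirus infection and selected with puromycin at 1 µg/ml. The labels do not give the content of the vector or say whether a line is a clone or a pool. They also do not name separate cultures behind the 2 libraries of a line, so the p-values reflect the spread between these libraries, which may be technical. A difference between 2 lines cannot be told apart from a difference between 2 conditions. The wild-type rescue differs from the control in the hairpin and in the amount of METTL3, and the 2 cannot be told apart in this comparison alone.

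METTL3 is the catalytic subunit of the nuclear complex that places N6-methyladenosine (m6A) on messenger RNA, with METTL14 as its partner and WTAP, KIAA1429 (VIRMA), ZC3H13, CBLL1 and the RBM15 proteins as adaptors. The mark is read by YTH-domain proteins, which shorten the life of many marked transcripts or change their splicing and translation, and it can be removed by FTO and ALKBH5. Point mutations in the catalytic site abolish methylation and leave the protein otherwise in place, so a wild-type and a catalytically dead copy are commonly set side by side.

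The libraries held 15200343 to 17893241 counts, and 15289 of 27140 genes had enough counts to be tested. Libraries of a line were close, with a biological coefficient of variation of 1.40%, although each pair differed by more than sampling noise (chi-square per degree of freedom 1.21 to 1.36). The share of the counts in the ribosomal RNA genes RNR1 and RNR2 was 3.22% and 3.27% in the control. It was 2.74% and 2.79% in the wild-type rescue. Other ribosomal RNA genes were not summed. The part of this share in the results was not tested. Replicate 1 of the wild-type rescue stood apart from all other libraries in a small set of genes described at the end, so the gene groups below were also counted without it. All 9 LNCaP markers of the list, KLK3, KLK2, HOXB13, TMPRSS2, FOLH1, KRT8 and KRT18 among them, were tested, and their summed level was 9434 to 9482 CPM in the control and 7810 to 7893 CPM in the wild-type rescue. CPM are counts scaled to a common library size, and log2 fold changes are wild-type rescue minus control unless said otherwise.

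METTL3 itself was measured first. The control libraries had 68.4 and 68.5 CPM and the wild-type rescue 309 and 325, beside 26.2 and 31.3 in the knockdown and 333 and 334 in the mutant rescue. Both wild-type rescue libraries lay above both control libraries by a mean of 4.64-fold (log2 fold change 2.21, SE 0.03, edgeR adjusted p = 1.46e-106). This rescue is thus a line with METTL3 RNA well above the control level, not one restored to it. Reads of the targeted and of the introduced copy fall on the same gene and were not separated.

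The other subunits of the writer complex changed little. Of 9 writer genes, METTL3 included, 2 were higher and 2 lower (median -0.02), against 49.3% of all tested genes called either way. RBM15B, an adaptor that brings the complex to its targets, went from 200 and 211 CPM to 167 in both rescue libraries (log2 fold change -0.30, SE 0.03). KIAA1429 went from 78.0 and 74.3 to 63.7 and 69.6 CPM (-0.19, SE 0.05), a call that ended without wild-type rescue replicate 1 (edgeR adjusted p = 0.0509). ZC3H13 was higher by 0.15 (SE 0.03), a call that ended without control replicate 1 (edgeR adjusted p = 0.0911). METTL14, the partner of METTL3, was not called at 0.15. Among 13 readers and erasers 2 were higher and 5 lower. RBMX, an RNA-binding protein of m6A-containing transcripts, had the largest change (96.2 and 91.4 CPM to 70.4 and 70.9, -0.41, SE 0.05), followed by YTHDF2, which hastens decay of marked transcripts (137 and 131 to 111 and 117, -0.23, SE 0.04). HNRNPA2B1, a nuclear reader, was higher by 0.15 (SE 0.02).

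The wild-type rescue differed from the control in about as many genes upward as downward, mostly by small amounts. By edgeR, 3636 genes were higher (23.8% of those tested) and 3895 lower (25.5%), which together is 49.3%. Among the called genes the median absolute log2 fold change was 0.295, and over all tested genes 10% lay below -0.42 and 10% above 0.45. A log2 fold change of at least 1 was reached by 321 called genes upward (2.1%) and 170 downward (1.11%). In 11121 genes (72.7%) the libraries of the 2 lines did not overlap. The knockdown against the same control libraries gave 3506 genes higher (22.9%) and 3831 lower (25.1%), which together is 48% of the tested genes. The wild-type rescue against the knockdown gave 1652 higher (10.8%) and 2021 lower (13.2%), and against the mutant rescue 3101 higher (20.3%) and 3206 lower (21%), together 41.3%.

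**Figure D1:**
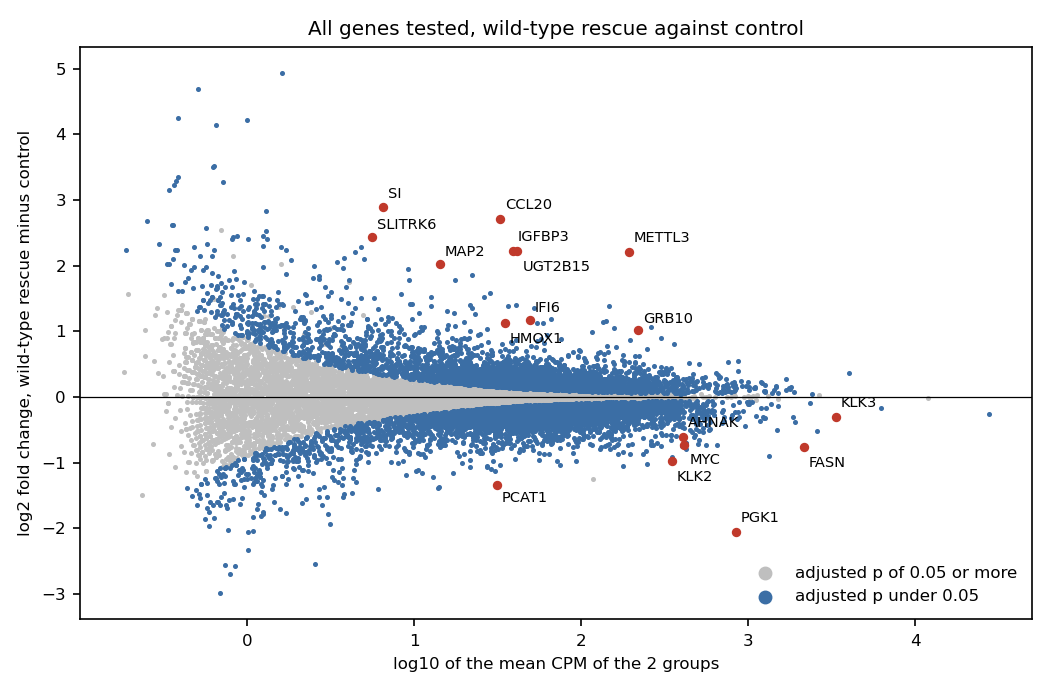
Each point is 1 of the 15289 tested genes, with the log10 of its mean CPM in the control and wild-type rescue on the horizontal axis and the log2 fold change, wild-type rescue minus control, on the vertical axis. Blue points were called by edgeR (adjusted p under 0.05), grey points were not, and red points are genes described in the text; METTL3 lies at 2.21 and PGK1 at -2.06.

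Genes were ranked if they were called, averaged 5 CPM or more, had no overlap and bore a symbol other than a clone name, with METTL3 set aside. The 20 largest rises ran from 1.39 to 2.89 on the log2 scale, in genes with means of 1.55 to 22.2 CPM in the control. SI, which encodes the intestinal disaccharidase sucrase-isomaltase, went from 1.9 and 1.2 CPM in the control to 10.5 and 12.4 in the wild-type rescue (2.89, SE 0.18, edgeR adjusted p = 2.82e-33). Its highest values were in the knockdown (18.1 and 18.4 CPM), and the wild-type rescue lay below the knockdown by 0.66 (SE 0.10, edgeR adjusted p = 1.64e-08). SLITRK6, a neuronal transmembrane protein, followed the same order of lines, at 1.90 and 1.57 CPM in the control, 14.8 and 14.6 in the knockdown, and 10.1 and 8.84 in the wild-type rescue (2.43, SE 0.18). EPHA7, an ephrin receptor, rose from 1.77 and 2.02 to 8.19 and 8.18 CPM (2.11, SE 0.18). MAP2, a microtubule-binding protein best known in neurons, rose from 5.62 and 5.67 to 22.3 and 23.5 CPM (2.02, SE 0.11). In these 4 genes both wild-type rescue libraries lay below both knockdown libraries, and each difference from the knockdown was called.

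The 20 largest rises included CCL20, CXCL8 and PLA2G4A. CCL20, a chemokine that attracts lymphocytes and dendritic cells, rose from 8.84 and 8.38 CPM to 55.1 and 57.7 (2.71, SE 0.08, edgeR adjusted p = 3.18e-72). CXCL8, the neutrophil chemokine interleukin 8, rose from 4.04 and 4.35 to 15.3 and 13.6 CPM (1.78, SE 0.13). PLA2G4A, the phospholipase that releases arachidonic acid, rose from 8.59 and 7.12 to 27.8 and 26.6 CPM (1.79, SE 0.10). PTGS2, the inducible cyclooxygenase that uses arachidonic acid and not one of the 20, was at 7.45 and 6.24 CPM in the control and 14.8 and 11.9 in the wild-type rescue (0.96, SE 0.12). In the mutant rescue PTGS2 was below the control libraries, at 4.63 and 5.54 CPM. The NF-kappaB response list had 7 of 15 tested members higher and 0 lower (median 0.24), so that 46.7% were called, against 49.3% of all tested genes called either way and 23.8% called higher. The 7 included the feedback inhibitors TNFAIP3 (0.91, SE 0.08) and NFKBIA (0.24) and the apoptosis inhibitor BIRC3 (0.90). Of the 8 members not called, the transcription factor subunits NFKB1 and RELB were at -0.01 and -0.10. The listed genes CXCL1, CXCL2, CXCL3, IL6, IL1A and IL1B were not tested, with highest counts of 2 to 8 in any library.

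Among the other large rises, IGFBP3, which binds insulin-like growth factors outside the cell, rose from 14.2 and 13.4 CPM to 63.1 and 65.9 (2.23, SE 0.07), and was the gene of these that lay furthest above the knockdown (48.3 and 46.8 CPM, wild-type rescue minus knockdown 0.44, SE 0.05, edgeR adjusted p = 2.62e-13). CP, the ferroxidase ceruloplasmin, rose by 1.59 (SE 0.07), the neuroserpin gene SERPINI1 by 1.87 (SE 0.09), and the protease gene TMPRSS11E by 1.95 (SE 0.14). PRR16, TLL1, IKZF2, SCN4B, the elastase inhibitor PI3 and the interferon-inducible GTPase GBP2 rose by 1.40 to 1.57. Against the knockdown, 3 of the 20 were called higher in the wild-type rescue (CCL20, IGFBP3 and PI3), 7 lower and 10 not called.

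**Figure D2:**
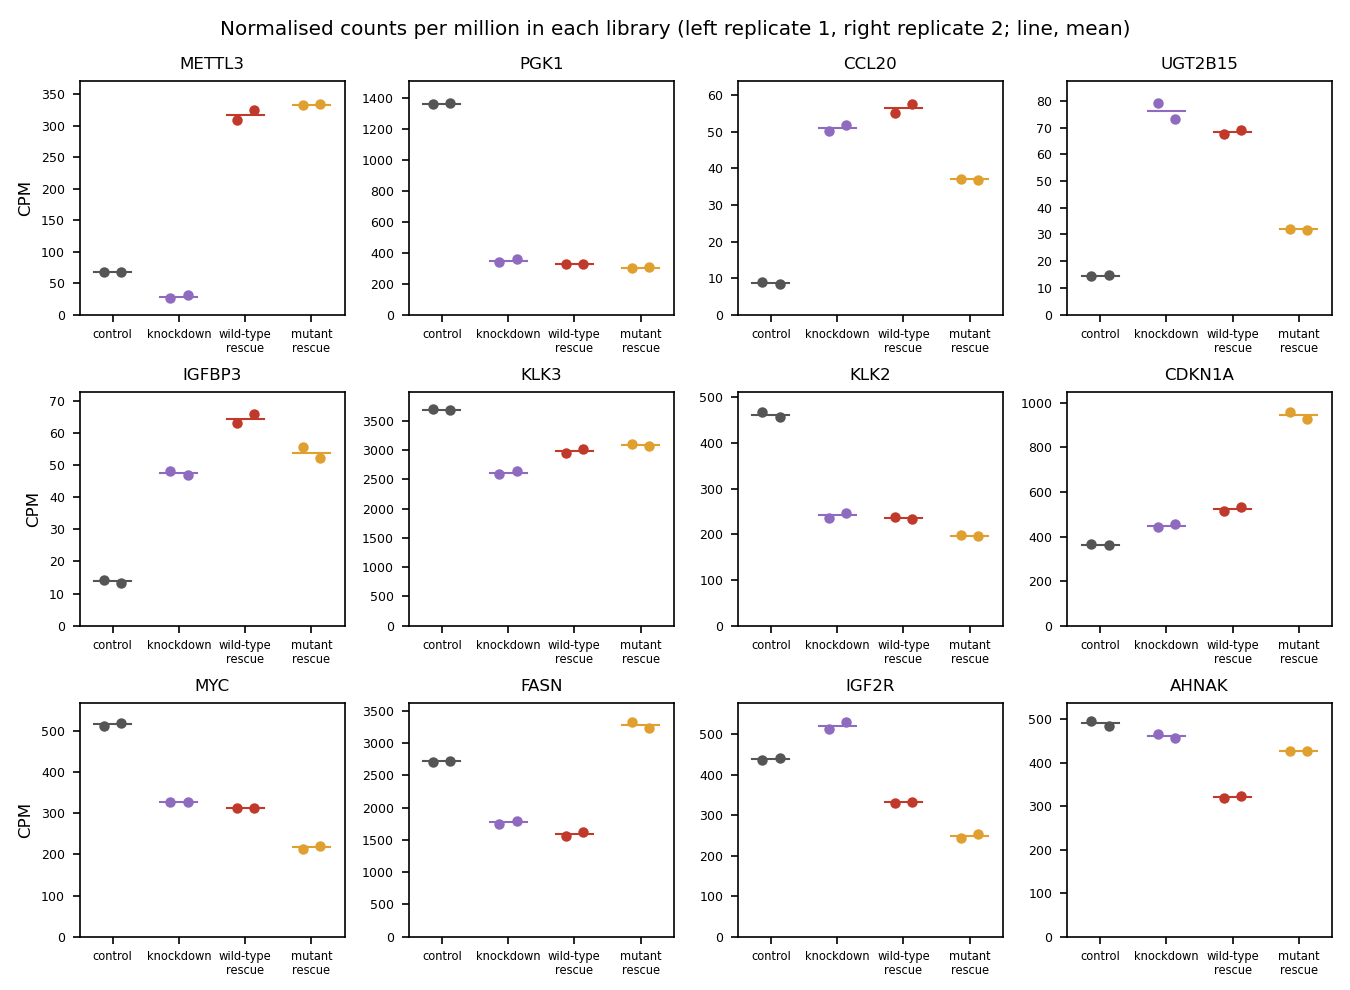
Normalised counts (CPM, vertical axis, from 0) of 12 genes in each of the 8 libraries, with replicate 1 left and replicate 2 right of each line's mean (horizontal bar). METTL3 stands highest in both rescues, PGK1 at 302 to 358 CPM in all 3 hairpin lines, and AHNAK is lowest in the wild-type rescue.

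The largest falls were led by PGK1, the phosphoglycerate kinase of glycolysis. It stood at 1361 and 1369 CPM in the control and at 329 and 326 in the wild-type rescue (log2 fold change -2.06, SE 0.02, edgeR adjusted p = 4.92e-139). Both knockdown libraries were near it, at 343 and 358 CPM, and PGK1 was slightly lower still in the wild-type rescue (wild-type rescue minus knockdown -0.10, SE 0.02). The other genes of glycolysis did not share the size of this fall. Of 21 members tested, 6 were higher and 8 lower (median 0.03), against 23.8% and 25.5% of all tested genes. HK2, the hexokinase induced in tumours, went from 89.6 and 90.2 to 63.5 and 62.8 CPM (-0.51, SE 0.05), and the glucose transporter SLC2A1 from 64.8 and 68.9 to 48.3 and 50.6 CPM (-0.43, SE 0.05). PFKFB4, a regulator of phosphofructokinase, was higher by 0.44 (SE 0.05), and GAPDH was higher by 0.05.

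The remaining large falls, of 1.01 to 1.40 on the log2 scale, spanned several functions. PCAT1, a long noncoding RNA of prostate cancer, went from 45.9 and 43.6 CPM to 18.1 and 17.2 (-1.34, SE 0.07). SFPQ, a splicing and paraspeckle protein, went from 329 and 335 CPM to 166 and 162 (-1.01, SE 0.03), and PPP1R10, a nuclear regulator of protein phosphatase 1, from 240 CPM in both control libraries to 116 and 115 (-1.05, SE 0.03). TWNK, the helicase of mitochondrial DNA, fell by 1.04 (SE 0.07), the tensin gene TNS4 by 1.39 (SE 0.11), SOX8 by 1.37 (SE 0.11) and the complement gene C2 by 1.18 (SE 0.13). Of the 20 genes with the largest falls, 1 was called higher than the knockdown (CHAC1), 8 lower and 11 not called.

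POMK, a kinase of dystroglycan glycosylation, was the exception among the 20 falls. It stood at 13.8 and 14.9 CPM in the control and 14.6 and 14.7 in the knockdown, but at 6.83 and 6.46 in the wild-type rescue and 7.34 and 7.43 in the mutant rescue. Its log2 fold change was -1.11 (SE 0.12, edgeR adjusted p = 1.28e-15), and in the knockdown against the control it was 0.03 and not called (edgeR adjusted p = 0.82). The fall was thus present in both lines with introduced METTL3 and was not detected in the line with the hairpin alone.

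Transcription factors and cofactors of the prostate lineage were mostly lower in the wild-type rescue than in the control. Of 12 tested 9 were lower and 1 higher (median -0.19), against 25.5% of all tested genes called lower. HOXB13, a homeobox factor of the prostate, was at 532 CPM in both control libraries and at 438 and 429 in the wild-type rescue (-0.30, SE 0.02, edgeR adjusted p = 3.32e-27). The knockdown lay between them, at 453 and 449 CPM, and the wild-type rescue was lower than the knockdown by 0.06 (SE 0.02, edgeR adjusted p = 0.0388). FOXA1, a pioneer factor, was at -0.19 and ETV1, an ETS factor, at -0.28 (SE 0.02).

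Genes induced by androgen were lower in 29 of 39 tested and higher in 4 (median -0.32), against 25.5% of all tested genes called lower. KLK3, which encodes prostate-specific antigen, went from 3705 and 3684 CPM to 2952 and 3016 (-0.31, SE 0.02), with the knockdown lower still at 2598 and 2636 CPM. KLK2, the neighbouring kallikrein, went from 468 and 457 to 238 and 233 CPM (-0.97, SE 0.02), and its difference from the knockdown, at 236 and 246 CPM, was not called (edgeR adjusted p = 0.368). TSC22D3, a leucine zipper protein induced by steroids, went from 124 and 123 to 62.5 and 62.9 CPM (-0.98, SE 0.04), while the mutant rescue was at 122 and 114 CPM. The transcription factor MAF fell by 1.12 (SE 0.07), the transporter gene ABCC4 by 0.91, the channel gene TRPM8 by 0.80 and FKBP5, a chaperone of steroid receptors, by 0.38. ACPP, prostatic acid phosphatase, rose instead, from 19.2 and 21.1 to 51.6 and 54.0 CPM (1.39, SE 0.07), as did the noncoding RNA PART1 (0.68, SE 0.10). The count was 27 lower and 4 higher without wild-type rescue replicate 1.

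Genes of the UGT2B family, which glucuronidate steroids, were higher. UGT2B15, which glucuronidates dihydrotestosterone, went from 14.3 and 14.9 CPM to 67.6 and 69.1 (2.22, SE 0.07, edgeR adjusted p = 2.82e-71), UGT2B17 from 22.9 and 21.5 to 59.6 and 58.4 (1.41, SE 0.06) and UGT2B10 from 1.39 and 1.26 to 5.67 and 5.47 (2.06, SE 0.22). These genes are close copies of each other, so reads could be divided unevenly among them. Both UGT2B15 and UGT2B17 were lower than in the knockdown, by 0.16 (SE 0.04) and 0.23 (SE 0.05). Of 15 members of the list of androgen-repressed and androgen-converting genes, 8 were higher, 2 lower and 5 not called (median 0.51), against 23.8% of all tested genes called higher. AKR1C2 and AKR1C3 had log2 fold changes of 1.37 and 1.71 that were not called, and both belong to the genes in excess in wild-type rescue replicate 1. Luminal epithelial genes were lower in 17 of 24 and higher in 2 (median -0.21), against 25.5% of all tested genes called lower. S100P was at -1.16 (SE 0.10), AGR2 at -0.85 (SE 0.08) and CDH1, E-cadherin, at -0.27.

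MYC and the genes of ribosome biogenesis were lower almost throughout. MYC went from 512 and 519 CPM in the control to 312 and 313 in the wild-type rescue (-0.72, SE 0.02, edgeR adjusted p = 1.78e-67), with 328 CPM in both knockdown libraries and 213 and 221 in the mutant rescue. Of 36 list members 34 were lower and 0 higher (median -0.47), against 25.5% of all tested genes called lower. PPRC1, a coactivator of mitochondrial gene programmes, went from 95.4 and 93.7 to 48.3 and 48.2 CPM (-0.97, SE 0.05), and NOP56, a core protein of box C/D small nucleolar particles, from 184 and 179 to 111 and 110 CPM (-0.72, SE 0.03). The pseudouridine synthase gene DKC1 fell by 0.68, the polyamine enzyme gene ODC1 by 0.63 and the RNA polymerase I subunit gene POLR1A by 0.62. SRM and HSPE1, both at -0.04, were not called. The knockdown against the control had 32 members lower and 1 higher (median -0.32), and the wild-type rescue against the knockdown had 19 lower and 1 higher (median -0.09). Against the mutant rescue, 34 of the 36 members were higher in the wild-type rescue and 0 lower (median 0.36).

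Cytosolic ribosomal protein genes moved the other way, by little. Of 76 tested, 64 were higher and 1 lower, with a median of 0.17, against 23.8% of all tested genes called higher. RPL27A went from 561 and 565 CPM to 721 and 726 (0.36, SE 0.02) and RPL11 from 608 and 599 to 733 and 756 (0.30, SE 0.02). RPL17 was the member called lower (-0.37, SE 0.11), a call that ended without wild-type rescue replicate 1 (edgeR adjusted p = 0.0637) and with DESeq2 (adjusted p = 0.075). With a trend of fold change with gene length removed, 44 were higher and 7 lower, with a median of 0.06. Subunits of the respiratory chain were higher in 38 of 46 and lower in 1 (median 0.21), and in 32 and 1 with the length trend removed (median 0.11). NDUFB3, a subunit of complex I, went from 43.9 and 44.2 to 63.0 and 63.5 CPM (0.52, SE 0.05), and UQCRC1 of complex III from 190 and 195 to 259 CPM in both (0.43, SE 0.03). Across all tested genes the fold change against the control had a Spearman rho of -0.0649 with length, against -0.346 for the wild-type rescue against the knockdown.

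**Figure D3:**
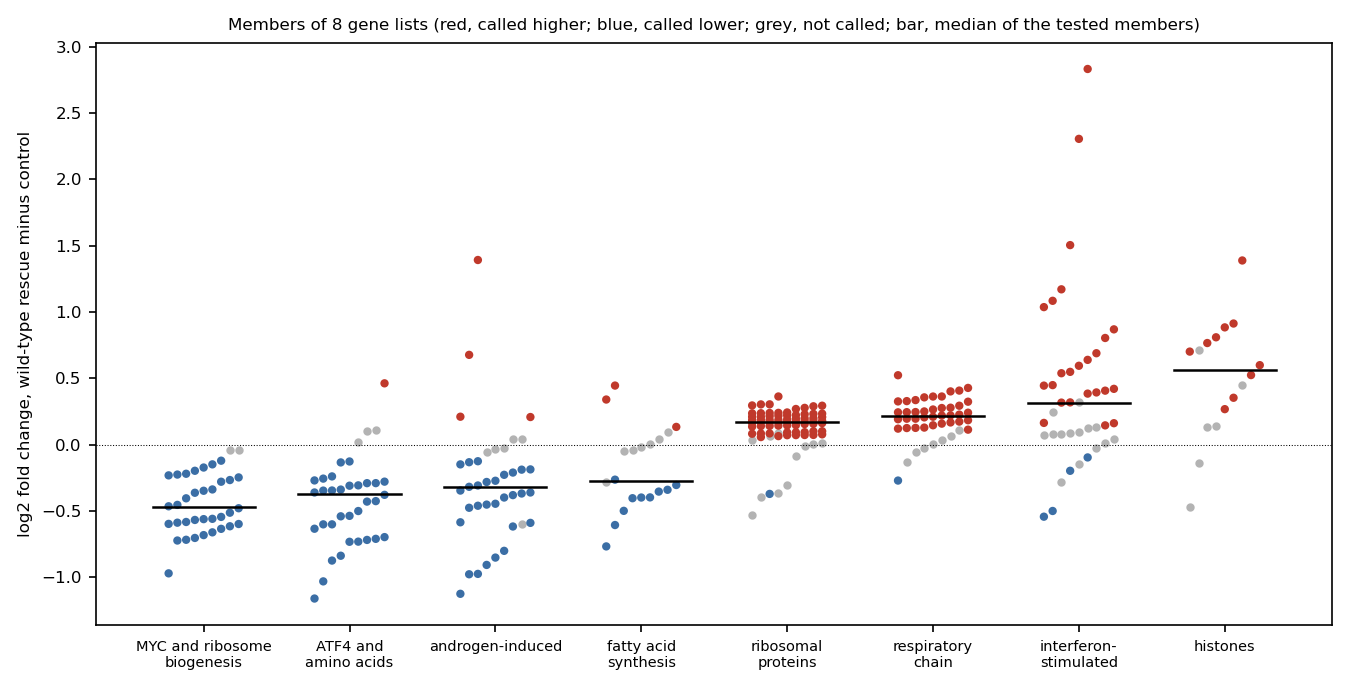
Each point is a tested member of 1 of 8 gene lists, with the log2 fold change, wild-type rescue minus control, on the vertical axis; red was called higher, blue lower and grey not called by edgeR, and bars are the medians. The MYC and ribosome biogenesis members centre on -0.47 and the interferon-stimulated members on 0.32, while ribosomal proteins lie in a narrow band around 0.17.

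Genes of the ATF4 response, which supplies amino acids when they are short or when protein synthesis is stressed, were lower in 32 of 36 and higher in 1 (median -0.37). The share of all tested genes called lower was 25.5%. ATF4 itself fell by 0.72. CHAC1, which degrades glutathione, went from 14.2 and 16.6 CPM to 6.64 and 7.07 (-1.16, SE 0.12, edgeR adjusted p = 6.28e-17). STC2, a secreted glycoprotein, went from 101 and 102 to 48.3 and 50.5 CPM (-1.03, SE 0.05), and SLC38A2, a neutral amino acid transporter, from 251 and 255 to 142 and 134 CPM (-0.87, SE 0.03). Transfer RNA synthetase genes of the list fell as well, AARS by 0.70, CARS by 0.63 and GARS by 0.50. ASNS, asparagine synthetase, fell by 0.27 and PSAT1, of serine synthesis, by 0.60. VLDLR, a lipoprotein receptor, was the member called higher (0.46), and SLC7A5 (0.02), CTH (0.11) and ALDH1L2 (0.10) were not called. CHAC1 was higher than in the knockdown (5.47 and 4.58 CPM) by 0.44 (SE 0.15, edgeR adjusted p = 0.0186), and in the mutant rescue it was at 14.7 and 15 CPM, within the range of the control.

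The promoters of this list and of the interferon-stimulated genes were read because each response has a well-known promoter element. The letters TGATGNAA, in either strand, are those of the composite C/EBP-ATF element bound by ATF4. They were found in the 250 bases before the start of 4 of 27 members with a RefSeq promoter (14.8%) and of 870 of 27305 promoters of all genes (3.19%). All 4 were among the 24 called lower. The other members with a promoter, of which 0 held a match, were only 3 and too few to compare. The core of the interferon-stimulated response element was searched as GAAA, 2 bases of any kind and GAAA again, in either strand. It was found in 19 of 33 interferon-stimulated members with a promoter (57.6%) and in 839 of the 27305 (3.07%). The match was present in 11 of the 21 members called higher and in 8 of the other 12, of which 3 were called lower and 5 not called, so it was no more frequent among the members called higher. A match is a description of the letters and not a measured binding site. The sequences below are 120-base stretches from RefSeq (GRCh38.p14) on the strand of the gene, 5′ to 3′, for CHAC1 (chr15:40953221-40953340, plus strand), ASNS (chr7:97872413-97872532, minus), IFI6 (chr1:27672253-27672372, minus), IFI44L (chr1:78620274-78620393, plus) and CXCL10 (chr4:76023628-76023747, minus). Capitals mark each match, which in CHAC1 is on the opposite strand.
CHAC1: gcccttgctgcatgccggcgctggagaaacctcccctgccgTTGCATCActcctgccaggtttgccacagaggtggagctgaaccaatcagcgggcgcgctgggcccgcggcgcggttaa
ASNS: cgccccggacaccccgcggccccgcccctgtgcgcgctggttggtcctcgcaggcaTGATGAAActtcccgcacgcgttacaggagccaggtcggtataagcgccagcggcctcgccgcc
IFI6: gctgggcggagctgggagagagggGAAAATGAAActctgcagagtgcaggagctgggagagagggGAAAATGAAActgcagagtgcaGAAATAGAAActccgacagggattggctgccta
IFI44L: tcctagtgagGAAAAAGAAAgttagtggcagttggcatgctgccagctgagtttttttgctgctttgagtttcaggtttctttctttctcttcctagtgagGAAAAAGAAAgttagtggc
CXCL10: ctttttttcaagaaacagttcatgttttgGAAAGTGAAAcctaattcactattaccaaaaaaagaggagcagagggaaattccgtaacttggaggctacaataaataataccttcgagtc

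Interferon-stimulated genes were higher in 24 of 42 and lower in 4 (median 0.32), against 23.8% of all genes called higher. IFI6, a mitochondrial protein that inhibits apoptosis and whose printed promoter holds 3 matches, went from 29.7 and 30.9 CPM to 66.4 and 69.7 (1.17, SE 0.06, edgeR adjusted p = 3.14e-45). IFIT1, a sensor of foreign RNA caps, was higher by 1.08 and IFI44 by 1.04. CXCL10, a T-cell chemokine, went from 2.65 and 2.33 to 6.90 and 7.24 CPM (1.5, SE 0.18), and IFI44L from 0.316 and 0.315 to 2.32 and 2.27 CPM (2.83, SE 0.40). MX1 (-0.54) and IFIT5 (-0.50), both antiviral effectors, were lower, and IRF7 (0.01), which drives the response, was not called. In IFI6, CXCL10 and IFI44L the difference from the knockdown was not called (edgeR adjusted p = 0.914, 0.711 and 0.423). Antigen presentation genes HLA-B (0.32) and HLA-C (0.16) were higher, and B2M, their common light chain, was lower by 0.10. The count was 23 higher and 4 lower without wild-type rescue replicate 1, and 20 higher and 2 lower without replicate 2.

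Genes that sense or process double-stranded RNA, which includes hairpins, were split, with 5 of 14 higher and 5 lower. The shares of all tested genes were 23.8% higher and 25.5% lower. DICER1, which cuts hairpin precursors, went from 127 and 125 CPM to 185 and 182 (0.54, SE 0.03). AGO2, the slicing Argonaute that carries the guide strand, went from 41.4 and 41.8 to 32.3 and 28.6 CPM (-0.46, SE 0.06), while the knockdown was at 46.1 and 46.8 CPM (wild-type rescue minus knockdown -0.62, SE 0.06, edgeR adjusted p = 1.3e-16). AGO1 was lower too, from 75.1 and 72.0 to 52.1 and 50.6 CPM (-0.52, SE 0.05). The other Argonautes did not share this: AGO4 was higher, from 50.9 and 51.7 to 67.9 and 70.9 CPM (0.44, SE 0.05), and AGO3, at 21.5 and 22.9 against 22.9 and 20.3 CPM, was not called (-0.05, edgeR adjusted p = 0.662).

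Fatty acid synthesis genes were more often lower than higher, by the count below. FASN, the fatty acid synthase, went from 2712 and 2723 CPM to 1565 and 1628 (-0.77, SE 0.02, edgeR adjusted p = 2.94e-82), with 1750.4 and 1797 in the knockdown and 3323 and 3229 in the mutant rescue. The control lay between the rescues, and wild-type minus mutant rescue was -1.04 (SE 0.02, edgeR adjusted p = 2e-100). ELOVL5, an elongase, fell from 580 and 561 to 381 and 369 CPM (-0.61, SE 0.02), SCD, the desaturase, from 678 and 682 to 477 and 485 (-0.50, SE 0.02), and SREBF1, a transcription factor of the pathway, by 0.40. Of 20 members 10 were lower and 3 higher (median -0.27), against 25.5% of all tested genes called lower and 23.8% higher. Cholesterol genes were higher in 9 and lower in 7 of 27 (median 0.02), with MSMO1, a sterol oxidase, higher (54.1 and 56.9 to 74.7 and 72.5 CPM, 0.40, SE 0.05).

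Mitotic genes were lower in 16 of 32 and higher in 1 (median -0.13), so that 53.1% were called, against 49.3% of all tested genes called either way and 25.5% called lower. They were led by TOP2A (-0.30, SE 0.04) and PLK1 (-0.29, SE 0.05), with 10 lower without wild-type rescue replicate 2 and 9 with DESeq2. DNA replication genes were lower in 16 of 37 and higher in 2 (median -0.13, 48.6% called), with 9 lower in DESeq2. CDKN1A, the inhibitor of cyclin-dependent kinases, went from 366 and 362 to 516 and 530 CPM (0.52, SE 0.02), with 442 and 455 in the knockdown and 958 and 930 in the mutant rescue. HMOX1, which degrades heme, rose from 22.4 and 21.4 to 44.3 and 51.1 CPM (1.13, SE 0.07), while GCLM, of glutathione synthesis, fell by 0.46 (SE 0.05), and the NRF2, heme and iron list as a whole had 7 of 20 higher and 5 lower. Unfolded protein genes were lower in 12 of 25 and higher in 3, with XBP1 at -0.49 (SE 0.03). Histone genes were higher in 10 of 16 with 0 lower (median 0.56), against 23.8% of all tested genes called higher. They included HIST1H2BC, from 6.32 and 7.68 to 19.1 and 17.6 CPM (1.39, SE 0.11). Most histone messages lack a poly(A) tail and the genes are near-identical copies, so these counts are uncertain.

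**Figure D4:**
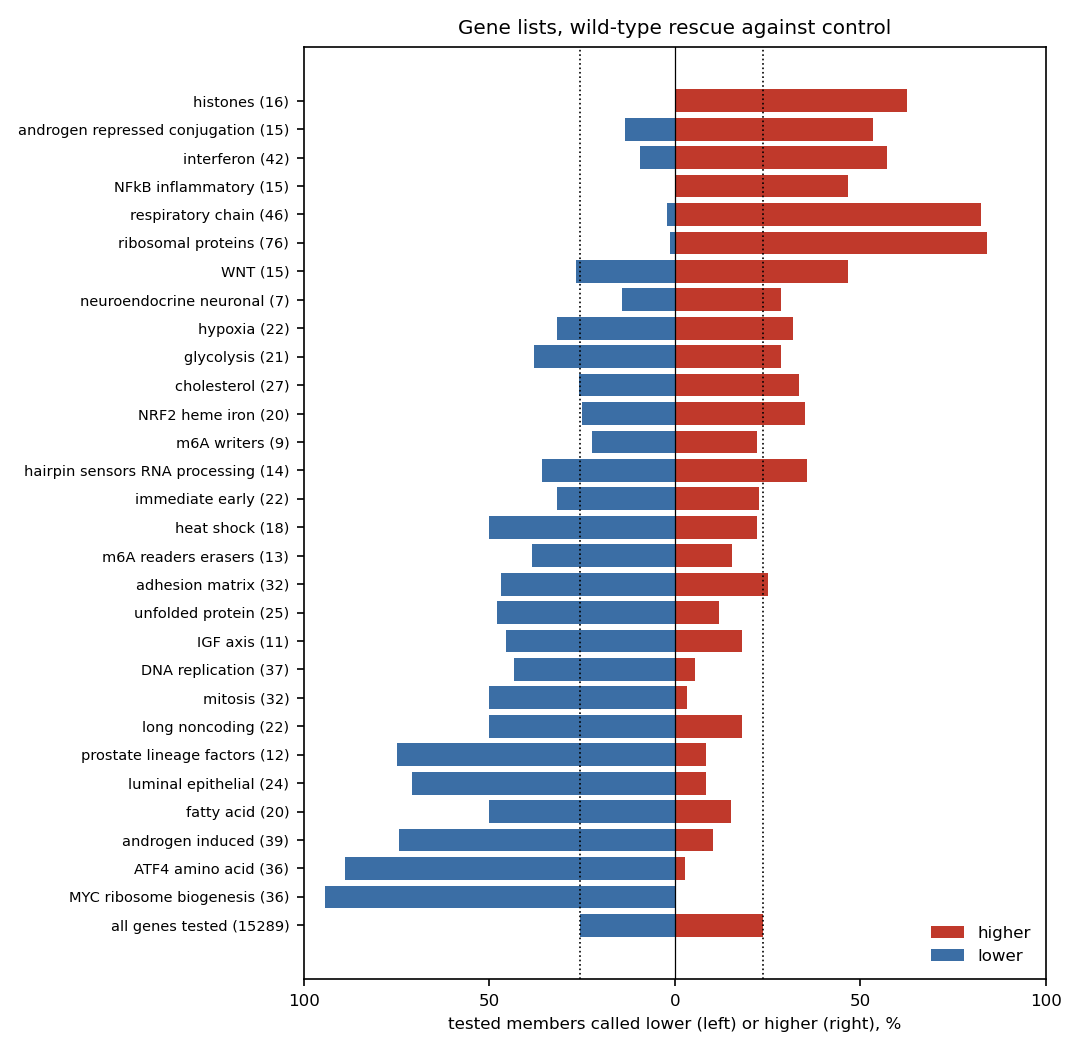
For each gene list shown (number of tested members in brackets), the percentage of tested members called higher (right, red) or lower (left, blue) in the wild-type rescue than in the control by edgeR, ordered by median log2 fold change. The dotted lines give the shares of all tested genes, 23.8% higher and 25.5% lower; MYC and ribosome biogenesis and ATF4 members lie furthest left and ribosomal proteins and respiratory chain subunits furthest right.

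Insulin-like growth factor genes departed from the knockdown in part. IGF2R, the mannose 6-phosphate receptor that clears IGF2, was at 437 and 440 CPM in the control and 512 and 529 in the knockdown, but at 331 and 333 in the wild-type rescue. It was therefore lower than the control by 0.40 (SE 0.02, edgeR adjusted p = 1.45e-36) and lower than the knockdown by 0.65 (SE 0.02, edgeR adjusted p = 9.11e-61). The mutant rescue was lower again, at 245 and 254 CPM. GRB10, an adaptor that dampens insulin receptor signalling, rose from 146 and 143 to 292 and 291 CPM (1.01, SE 0.03). IRS1, the main substrate of the receptors, fell from 9.79 and 10.2 to 6.19 and 5.86 CPM (-0.73, SE 0.13), and IGF1R fell by 0.28. Of 11 members 2 were higher and 5 lower, against 23.8% and 25.5% of all tested genes.

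Some genes were set apart in the wild-type rescue from all 3 other lines. Those below were named up to a fixed number per direction, and the total of such genes was not counted. AHNAK, a very large scaffold protein, was at 497 and 484 CPM in the control, 467 and 456 in the knockdown and 428 and 427 in the mutant rescue, but at 320 and 324 in the wild-type rescue. Its log2 fold change was -0.61 against the control (SE 0.02, edgeR adjusted p = 9.31e-58), -0.52 against the knockdown and -0.41 against the mutant rescue. TRIM35, a ubiquitin ligase, was lower against the control by 0.44 (SE 0.08), with 28.2 and 28.6 CPM in the control and 19.9 and 21.9 in the wild-type rescue. On the high side, MMP7, the metalloproteinase matrilysin, was at 24.2 and 26.9 CPM against 19.4 and 16.0 in the control (0.53, SE 0.08), with the knockdown and mutant rescue at 18.9 to 20.9. The noncoding RNA LINC00174 was at 38.7 and 38.3 CPM against 28 and 31.3 (0.38, SE 0.07), and ZMAT1 at 6.57 and 7.79 against 4.80 and 2.77 (0.93, SE 0.17). TPM2, a tropomyosin chosen by the same rule, was at 7.67 and 4.59 CPM in the wild-type rescue against 4.49 and 3.40 (0.61, SE 0.18), and its call ended without wild-type rescue replicate 1 (edgeR adjusted p = 0.436) or control replicate 2 (0.12). For MSMP and ZNF526, at -0.38 and -0.34, the calls also ended without replicate 1 (edgeR adjusted p = 0.198 and 0.0973). The MSMP call ended without control replicate 1 as well (edgeR adjusted p = 0.0768), and the ZNF526 call without control replicate 2 (0.0766).

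Other genes passed the control level in the direction opposite to the knockdown. RGP1, which takes part in vesicle traffic to the Golgi, was at 21.5 and 22.5 CPM in the control, 28.4 in both knockdown libraries and 14.0 and 16.6 in the wild-type rescue (-0.52, SE 0.09), and DDI2, a protease that activates the proteasome factor NFE2L1, at 14.3 and 13.6, then 16.8 and 18.2, then 8.64 and 10.1 (-0.56, SE 0.11). Upward, BBC3, which promotes apoptosis, was at 37.0 and 38.2 CPM in the control, 28.8 and 32.5 in the knockdown and 44.6 and 42.3 in the wild-type rescue (0.21, SE 0.06, edgeR adjusted p = 0.0016), and PLA2G2A, a secreted phospholipase, at 34.7 and 34.8, then 29.1 and 26.2, then 39.8 and 41.1 (0.22, SE 0.06). MUC6, a gel-forming mucin, came back part of the way, with 6.70 and 6.42 CPM in the control, 1.75 and 2.16 in the knockdown and 4.06 and 3.32 in the wild-type rescue (wild-type rescue minus knockdown 0.91, SE 0.22). NOMO2 and NOMO3, at -0.32 and -0.41, are close copies whose calls ended under several alternatives, and are uncertain.

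Replicate 1 of the wild-type rescue held a small set of genes at a higher level than its partner. The counts of the 2 libraries were compared gene by gene with an exact binomial test on counts scaled to a common size, which compares those libraries and not conditions, and a gene was in excess at a fold of at least 3 and an adjusted p under 0.05. Of 16158 genes, 33 were in excess in replicate 1 (0.204%) and 0 in replicate 2. The same test gave 0 genes in either library of the knockdown and the mutant rescue, 0 in control replicate 1 and 1 in control replicate 2 (RNU6-2, a small nuclear RNA, with 843 and 4387 counts). The folds ran from 3.1 to 50.8 with a median of 7.05. For all 33 genes replicate 1 lay above the other 7 libraries, and replicate 2 lay within the range of the 6 libraries of the other lines.

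The genes in excess were of several kinds, and 8 of the 33 are on a list of markers of basal, mesenchymal and other cultured lines. The aldehyde dehydrogenase gene ALDH3A1 had 23 counts in replicate 1 and 0 in replicate 2, with 0 to 4 in the 6 libraries of the other lines. The receptor kinase gene AXL had 27 and 3 counts, the adhesion receptor gene CD44 33 and 5, and the mucin gene MUC16 26 and 2. GSTP1, a glutathione transferase gene silenced by promoter methylation in LNCaP, had 38 and 5 counts, with 4 to 10 in the other lines. S100A6 had 77 and 10 counts, the aldose reductase gene AKR1B1 72 and 10, AKR1C2 64 and 7, and the collagen gene COL4A1 27 and 4. EDIL3, FOLR1, NEFH, ABCC3, SPINK6 and the collagen chaperone gene SERPINH1 complete the 15 with the largest folds among those with at least 20 counts. The genes with the most counts, singled out after their values were seen, were TGFBI (170 and 58), BASP1 (163 and 39), the keratin genes KRT17 (121 and 27) and KRT7 (102 and 38), and ANXA2 (83 and 29).

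**Figure D5:**
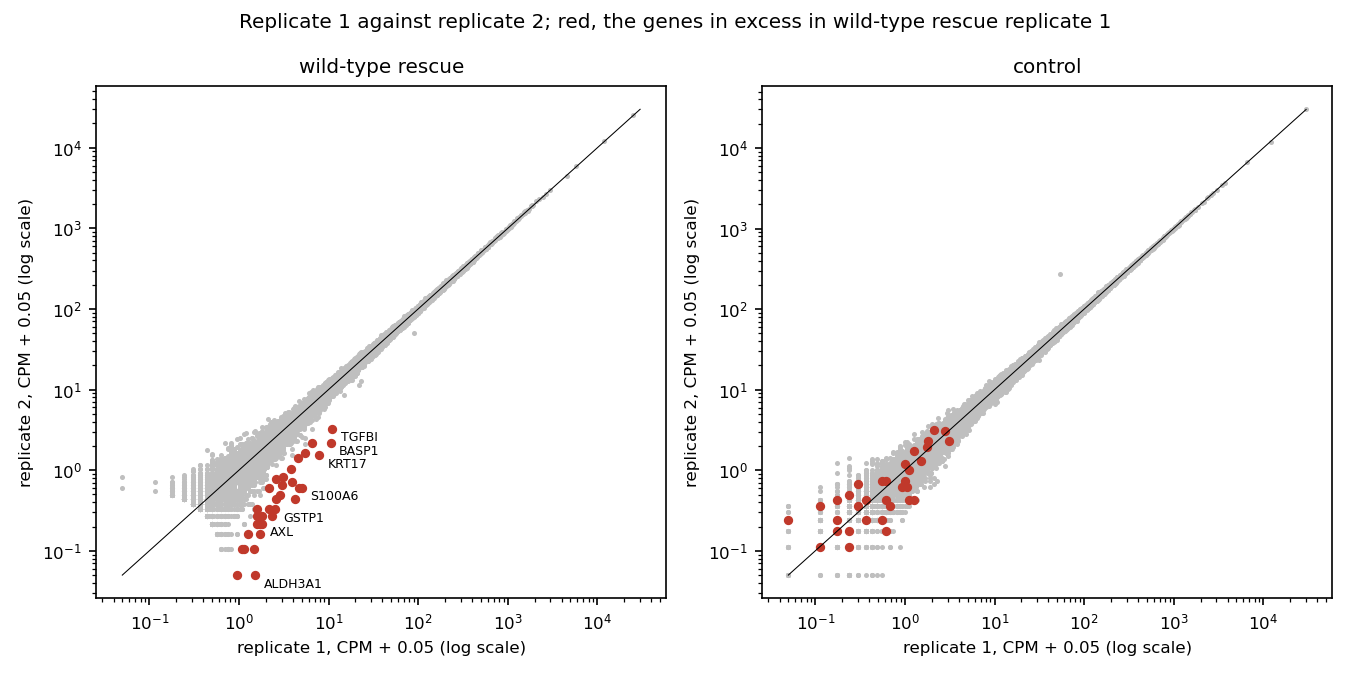
Replicate 2 against replicate 1 on log scales (CPM plus 0.05) for the wild-type rescue (left) and the control (right), 1 point per gene, with the line of equality. The 33 genes in excess in wild-type rescue replicate 1 (red) lie below the line on the left and scatter around it in the control; the single point far above the line on the right is RNU6-2.

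The summed level of the 33 genes was 109 CPM in replicate 1 and 20.9 CPM in replicate 2, against 25.6 to 34.3 CPM in the other 6 libraries. The 33 were selected for a higher level in replicate 1 than in replicate 2, so the gap between these 2 sums follows from the selection. A list of 31 markers of basal, mesenchymal and other cultured lines, which holds 8 of the 33, summed to 124.8 CPM in replicate 1 and to 70.63 to 78.93 CPM in the other 7 libraries. This list was written with earlier results of these data known, and the 8 selected genes add to its sum in replicate 1, so it is not separate evidence. Of the defining basal markers on it, KRT5 and KRT6A had 0 counts in both wild-type rescue libraries, TP63 had 11 and 12 and KRT14 35 and 59. VIM, the mesenchymal intermediate filament, had 229 and 152 counts, with 106 to 160 in the other lines. LNCaP markers summed to 7810 CPM in replicate 1 and 7893 in replicate 2. Whether RNA or cells of another line account for these counts was not tested.

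These genes had little weight in the comparison with the control. Of the 33, 22 were tested and 2 were called, SERPINH1 (2.45, edgeR adjusted p = 0.0415) and MRC2 (1.12, edgeR adjusted p = 0.0129), and neither was called without replicate 1, where their log2 fold changes were 0.60 and -0.01. They make up 0.0266% of the 7531 calls. Without replicate 1 another 2 were called lower than the control, KRT17 (-0.81, edgeR adjusted p = 0.0303) and PDE2A (-1.41, edgeR adjusted p = 0.000375). Without replicate 2, when replicate 1 alone stood for the line, 32 of the 33 were called. Over all genes, edgeR called 6585 genes without replicate 1 and 6439 without replicate 2, of which 6311 and 6116 were among the 7531 in the same direction.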

How the data were processed

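Raw counts per gene of 8 LNCaP RNA libraries stand in the authors' deposited table, beside a column that holds the length of each gene. Per the submitters' processing notes, the authors used CASAVA, STAR 2.5.2b, featureCounts, DESeq2 and hg19; parameters, strand setting and annotation are not given in the sources used here. Libraries came from a stranded messenger RNA kit, per the labels' protocols.

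Counts were fitted with edgeR 4.0.16 in R 4.3.3: filterByExpr (minimum count 10, total 15), TMM, and a robust quasi-likelihood fit of all 8 libraries with 1 mean per line. The contrast was tested two-sided. A call is a Benjamini-Hochberg adjusted p under 0.05 over 15289 genes, with no minimum fold, and a standard error is the absolute log2 fold change over the square root of F. With 2 libraries against 2 the smallest two-sided permutation p is 0.333, so no exact test of 1 gene can pass. Totals of 15200343 to 17893241 set the precision, for counting error only. The steps were tested on simulated counts of the same design.

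The 32 gene lists, the comparison and the naming rules were chosen with earlier results of these data known, so lists are described by counts and medians and not tested. Named genes are METTL3, KLK3, the 20 largest rises and 20 largest falls (called, 5 CPM or more on average, no overlap, no clone name, and METTL3, XIST and Y-linked genes set aside), and the 4 largest called changes per list (at least 1 CPM). To these come 6 per direction that differ the same way from all 3 other lines, 6 per direction called against the control and, opposite to its own change, against the knockdown, and 15 genes in excess in wild-type rescue replicate 1 (at least 20 counts). Some are left out, and members beyond the 4 are given as examples chosen after their values were seen.

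Genes in excess in 1 library of a line were found by an exact binomial test of the 2 counts (sum of at least 10, fold of at least 3 with 0.5 added). Alternatives were DESeq2 1.42.0 size factors, the DESeq2 Wald test, no filter on low counts, only the 2 lines compared, the replicate number as a block, removal of a length trend (lowess, span 0.3), each library left out (the lone library assumed to vary like the other lines), a minimum log2 fold change of 1, a mean of at least 10 CPM, and, for the excess, folds of 2 and 5, total-count scaling and edgeR's exact test. Promoter sequences are from RefSeq (GRCh38.p14), first listed start per gene, older symbols matched through RefSeq synonyms. No coordinates of the count table are given, since no annotation of that build was used.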

Additional observations from a re-analysis of the deposited data

How the results depend on the processing

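METTL3 kept its direction and call in all alternatives run (log2 fold change 2.18 to 2.25). DESeq2's Wald test called 2419 genes higher and 2576 lower, all 4995 of them among the edgeR calls, and 127 edgeR calls had no DESeq2 adjusted p. A minimum log2 fold change of 1 left 321 higher and 170 lower. Leaving out 1 library gave 2922 to 3184 genes higher and 3259 to 3401 lower, and the other alternatives stayed within 1.5 times of 3636 and 3895. Same-numbered libraries of different lines did not deviate together (r -0.0379 to 0.0397 over 11572 genes, no pair over 0.1), so the numbers were not used as pairs. The replicate block gave 3661 higher and 3902 lower and ended no call among the 173 named genes with a value. It raised the number of replicate 1 excess genes called against the control from 2 to 13; that number was 18 without a filter on low counts, 0 with DESeq2, 1 with only the 2 lines compared, and 1 to 32 with a library left out. The excess itself was 37, 23, 33 and 29 genes with a fold of 2, a fold of 5, total-count scaling and edgeR's exact test, and 0 in replicate 2 under each. Of the 173 named genes, DESeq2 ended 19 calls, leaving out a library 9 to 12, no filter 4, the 2 lines alone 2 and the length trend 1, none with a reversed sign. With the length trend removed, NRF2, heme and iron genes lower went from 5 to 8 and ribosomal protein genes lower from 1 to 7. With DESeq2 the DNA replication genes higher went from 2 to 0 and the mitosis gene higher from 1 to 0. Among genes under about 1 CPM, these depths limit what can be called.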

Other observations

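Further gene groups were mixed in the wild-type rescue against the control, where 23.8% of all tested genes were called higher and 25.5% lower. Adhesion and matrix genes were lower in 15 of 32 tested and higher in 8 (median -0.09). FLNA, which cross-links actin, went from 579 and 577 CPM to 393 and 381 (log2 fold change -0.58, SE 0.02), and lay below the knockdown at 449 and 462 CPM by 0.24 (SE 0.02, edgeR adjusted p = 4.93e-18). MMP16, a membrane-bound metalloproteinase, went from 12.1 and 10.2 to 16.2 and 15.2 CPM (0.49, SE 0.10), with 23.0 and 23.1 in the knockdown. Heat shock genes were lower in 9 of 18 and higher in 4. HSPB1, a small chaperone, went from 535 and 520 to 370 and 377 CPM (-0.50, SE 0.02), while the co-chaperone gene DNAJB4 went from 10.9 and 11.5 to 20.04 and 20.11 CPM (0.84, SE 0.10). CRYAB, another small chaperone, was at 2.97 and 5.61 CPM in the control and 1.16 and 1.55 in the wild-type rescue (-1.64, SE 0.25), and the control libraries differed widely.

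Long noncoding RNAs of the list were lower in 11 of 22 and higher in 4 (median -0.18), against 25.5% and 23.8% of all tested genes. PCGEM1, a prostate transcript, went from 0.948 and 0.819 to 2.71 and 2.04 CPM (1.41, SE 0.32), whereas PCA3 went from 3.10 and 3.84 to 2.26 and 2.27 CPM (-0.62, SE 0.23), a call that ended with DESeq2 (adjusted p = 0.2) and without either wild-type rescue library or control replicate 2 (edgeR adjusted p = 0.0559, 0.0685 and 0.243). Immediate early genes were higher in 5 of 22 and lower in 7, so that 54.5% were called, against 49.3% of all tested genes. DUSP4, a phosphatase of MAP kinases, went from 202 and 209 to 121 and 128 CPM (-0.71, SE 0.03), and its relative in feedback, SPRY4, from 4.86 and 4.6 to 7.93 and 8.18 CPM (0.77, SE 0.15). WNT pathway genes were higher in 7 of 15 and lower in 4, with the receptor genes FZD5 (-0.59, SE 0.07) and FZD4 (-0.46, SE 0.08) lower and the feedback ligase gene RNF43 higher (0.36, SE 0.08). The number of WNT genes higher was 4 without wild-type rescue replicate 1 or control replicate 1 and 3 with DESeq2. Hypoxia genes were higher in 7 and lower in 7 of 22, with P4HA1, a collagen prolyl hydroxylase, going from 113 and 116 to 155 and 154 CPM (0.43, SE 0.03). Of 18 neuroendocrine and neuronal genes 7 could be tested, and SLITRK6 and GAD1 (1.10, SE 0.23) were higher and SYT4 lower (-0.29, SE 0.03).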
